A study of Homo sapiens with 15 samples.

Results

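The 8 genes described here are HIC1, MYOF, EPB41L3, RASGRP4, N4BP3, VLDLR, CST7 and POPDC1. They were named after their change with the BET inhibitor RVX208, which was not a scaled copy of their change with the BET inhibitor OTX015. All 8 were measured, each by 1 array feature, among 14812 genes in all. They were chosen by the log2 values of the DMSO, RVX208 and OTX015 arrays, so differences among these 3 groups are given below as a description and carry no test. The working name of the set, genes with a response specific to RVX208, held for part of it. HIC1, MYOF, EPB41L3 and N4BP3 had RVX208 arrays beyond all 12 other arrays. VLDLR, CST7 and POPDC1 changed to a like extent with OTX015, and VLDLR and CST7 also with a further compound, DW71177. The set is therefore called the 8 genes below.

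Gene expression was measured in MV4-11, an established human acute myeloid leukemia line with a KMT2A-AFF1 fusion and a FLT3 internal tandem duplication. Cells received the vehicle DMSO, DW71374 at 300 nM, DW71177 at 300 nM, OTX015 at 300 nM or RVX208 at 5 uM for 24 h, and each of the 5 groups held 3 arrays. Total RNA was hybridised to an Affymetrix whole-transcript array, which reports a log2 signal for each feature and no counting depth. All groups were cultures of this 1 line, and the labels do not say whether the triplicate wells were separate cultures. The p-values below therefore measure only the spread between arrays, which may be technical, and with 3 arrays a group the precision is limited.

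BET proteins bind acetylated lysines on histones through a pair of bromodomains and recruit the transcription elongation machinery. In acute myeloid leukemia with KMT2A fusions they sustain oncogene transcription, and their inhibitors release them from chromatin. OTX015 (birabresib) binds both bromodomains, and RVX208 (apabetalone) prefers the second one. DW71177 and DW71374 are known here by code name only.

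The 8 genes have no pathway in common. HIC1 encodes a zinc finger transcriptional repressor and tumor suppressor that is often silenced by DNA methylation in cancer. MYOF encodes myoferlin, a calcium-binding membrane protein of the ferlin family that acts in membrane repair and receptor trafficking. EPB41L3 encodes protein 4.1B, which ties membrane proteins to the actin skeleton, and RASGRP4 encodes a diacylglycerol-responsive Ras activator of mast and myeloid cells. N4BP3 encodes a binding partner of the ubiquitin ligase NEDD4. VLDLR encodes a lipoprotein and reelin receptor, CST7 encodes cystatin F, an inhibitor of lysosomal cysteine proteases in immune cells, and POPDC1 encodes a cAMP-binding Popeye membrane protein best known from striated muscle.

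The promoters of the 8 genes differed widely in CpG content. RefSeq promoter sequences of GRCh38.p14, each running from 250 bases before to 50 bases after a transcription start, were available for 6 of the 8 genes. The 4 genes with a single promoter in that table are shown, and capitals mark each CpG dinucleotide. MYOF and RASGRP4, which were high with RVX208, lay near the median CpG count of all promoters. N4BP3 and VLDLR, which were low, held many more. MYOF lies at chr10:93482285-93482584 on the minus strand with 12 CpG and 46.7% G+C, and RASGRP4 at chr19:38426170-38426469 on the minus strand with 10 CpG and 58.3% G+C. N4BP3 lies at chr5:178113282-178113581 on the plus strand with 46 CpG and 80.3% G+C, and VLDLR at chr9:2621537-2621836 on the plus strand with 49 CpG and 79.0% G+C.
MYOF: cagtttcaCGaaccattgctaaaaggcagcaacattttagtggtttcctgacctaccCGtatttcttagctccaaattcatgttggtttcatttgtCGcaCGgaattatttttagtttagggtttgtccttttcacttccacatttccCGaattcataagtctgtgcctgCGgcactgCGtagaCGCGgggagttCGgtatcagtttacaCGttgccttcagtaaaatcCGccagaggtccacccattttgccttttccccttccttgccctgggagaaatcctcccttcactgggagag
RASGRP4: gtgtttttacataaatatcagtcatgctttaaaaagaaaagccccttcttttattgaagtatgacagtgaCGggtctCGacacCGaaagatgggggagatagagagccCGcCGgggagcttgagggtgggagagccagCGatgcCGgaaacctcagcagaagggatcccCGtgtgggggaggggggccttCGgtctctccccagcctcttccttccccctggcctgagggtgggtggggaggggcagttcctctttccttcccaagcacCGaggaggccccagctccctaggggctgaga
N4BP3: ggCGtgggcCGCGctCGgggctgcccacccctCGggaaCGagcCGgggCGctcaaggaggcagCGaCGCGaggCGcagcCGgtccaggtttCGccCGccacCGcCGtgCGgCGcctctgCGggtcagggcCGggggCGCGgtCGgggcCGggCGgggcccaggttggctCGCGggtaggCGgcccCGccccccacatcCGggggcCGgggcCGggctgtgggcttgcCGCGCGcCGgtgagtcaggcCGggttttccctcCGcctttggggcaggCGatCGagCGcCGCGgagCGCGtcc
VLDLR: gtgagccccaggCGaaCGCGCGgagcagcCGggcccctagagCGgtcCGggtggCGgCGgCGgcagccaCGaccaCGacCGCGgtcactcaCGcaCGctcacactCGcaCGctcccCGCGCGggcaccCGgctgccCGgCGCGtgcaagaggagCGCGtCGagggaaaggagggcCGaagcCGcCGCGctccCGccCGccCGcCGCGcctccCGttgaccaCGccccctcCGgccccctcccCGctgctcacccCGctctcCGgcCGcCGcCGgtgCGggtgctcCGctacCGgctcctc

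Over all 35116 promoters of the table the median was 14 CpG and 58.7% G+C, with CpG quartiles of 4 and 28. N4BP3 had more CpG than 97.1% of them and VLDLR more than 98.4%, whereas MYOF exceeded 46.9% and RASGRP4 43.6%. The 3 POPDC1 promoters held 32 to 40 CpG and the 4 of EPB41L3 held 2 to 32, fewer than the 46 of N4BP3 and the 49 of VLDLR. Sequences of HIC1 and CST7 were not available, and with so few genes nothing is read from this order. Each sequence was searched on both strands for the E-box CACGTG, which MYC binds, for the PU.1 site GAGGAAGT and for TATAAA and CCAAT. These letters occur in 7.26%, 2.59%, 11.5% and 34.6% of all promoters. The 4 printed sequences held none of them. Among all the promoters of the 6 genes an E-box was found in 1 of EPB41L3, starting 70 bases before the start site.

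Arrays had medians of 3.72 to 3.79, and Pearson's r between replicates, taken over genes, was 0.992 to 0.995. Of 10 genes that mark the labelled line 7 were measured, and FLT3, LYZ, CD68, SPI1, CSF1R and MEIS1 lay between 6.78 and 11.11 in DMSO, while MPO lay at 4.59. With RVX208 the monocyte genes LYZ and CSF1R fell by 0.75 ± 0.058 and 0.33 ± 0.076 and MPO by 0.49 ± 0.11 (limma adjusted p = 1e-05, 0.019 and 0.022). These were 3 of 7, where 6.52% of all genes were called and 3.11% were lower. With OTX015 2 rose and 4 fell, CSF1R by 1.55 ± 0.076 (limma adjusted p = 7.1e-09). There 25.7% of all genes were called, 11.2% higher and 14.5% lower. Of the markers of other cell types, 2 of 3 lymphoid, 2 of 4 erythroid and megakaryocyte and 2 of 4 epithelial and stromal ones lay under 5 in DMSO, among them EPCAM at 2.64 and PPBP at 2.14. The other 5 were KRT18 at 7.74, NKG7 at 7.46, PF4 at 5.92, KRT8 at 5.29 and GATA1 at 5.02. The natural killer cell gene NKG7 fell with both compounds, at -0.585 ± 0.085 with RVX208 and -1.198 ± 0.085 with OTX015 (limma adjusted p = 0.00097 and 2.3e-07). Summed over the 3 lymphoid markers, the level was 15.67 to 15.83 in the DMSO arrays and 14.85 to 15.23 in the RVX208 arrays. In the DW71374 arrays it was 15.11 to 15.71, which overlapped the RVX208 range. The lymphoid markers PRF1 and GNLY differed by -0.03 ± 0.11 and -0.11 ± 0.12 with RVX208 and were not called. The part of these marker shifts in the results was not tested. Listed markers with no named feature were not analysed here.

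HIC1 was higher with RVX208 than in every other array. Its log2 signal was 5.82, 5.84 and 5.88 in the DMSO arrays and 6.81, 6.81 and 6.59 in the RVX208 arrays. OTX015 gave 5.92, 6.07 and 6.13, DW71177 gave 6.24, 6.32 and 6.25, and DW71374 gave 5.72, 6.00 and 6.09. The lowest RVX208 array thus stood above the highest DW71177 array, the DW71177 arrays stood above the OTX015 arrays, and the OTX015, DW71374 and DMSO groups were neighbours whose DW71374 arrays overlapped both others. The mean difference from DMSO was 0.89 ± 0.094 with RVX208 (standard error of the fit, n = 3 and 3), a 1.85-fold higher signal. It was 0.19 ± 0.094 with OTX015 and 0.42 ± 0.094 with DW71177. Measured from DW71374 in place of DMSO, the OTX015 difference was 0.10 ± 0.094, with overlapping arrays.

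MYOF had the same order of groups at a smaller size. The DMSO arrays read 5.58, 5.57 and 5.61, and the RVX208 arrays read 6.15, 6.25 and 6.12. DW71177 gave 5.77, 5.88 and 5.85 and OTX015 gave 5.77, 5.77 and 5.84, which overlapped each other and lay between the DMSO and RVX208 arrays. DW71374 gave 5.62, 5.61 and 5.67, with all 3 arrays above DMSO by a mean of 0.05 ± 0.054. From DMSO the difference was 0.59 ± 0.054 with RVX208, 0.25 ± 0.054 with DW71177 and 0.21 ± 0.054 with OTX015. The step from OTX015 to RVX208 for this membrane repair gene was 1.3-fold.

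EPB41L3 was high with all 3 active compounds and highest with RVX208. Its signal was 7.74, 7.76 and 7.79 in DMSO, 8.18, 8.22 and 8.17 with OTX015, 8.21, 8.24 and 8.27 with DW71177 and 8.37, 8.36 and 8.33 with RVX208. The groups of OTX015 and DW71177 overlapped, as did DW71374 and DMSO, while RVX208 stood above all others. The step from DW71177 to RVX208 was 0.12 ± 0.053, small beside the 0.47 ± 0.053 from DMSO to DW71177. Against DMSO, RVX208 gave 0.59 ± 0.053 and OTX015 gave 0.42 ± 0.053. RVX208 stood 0.17 ± 0.053 above OTX015 for this cytoskeletal linker gene, and 0.11 above it after quantile normalization.

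RASGRP4 separated RVX208 and DW71177 from OTX015. It read 5.79, 5.82 and 5.82 in DMSO, 5.95, 5.93 and 5.96 with OTX015, 6.22, 6.20 and 6.16 with DW71177 and 6.38, 6.20 and 6.33 with RVX208. The RVX208 and DW71177 arrays overlapped, and both groups lay above all OTX015 arrays. DW71374 read 5.87, 5.87 and 5.89, above the DMSO arrays by 0.07 ± 0.054 and below the OTX015 arrays. From DMSO the differences were 0.49 ± 0.054 with RVX208, 0.38 ± 0.054 with DW71177 and 0.14 ± 0.054 with OTX015. Measured from DW71374 the OTX015 difference was 0.07 ± 0.054. At the shared dose of 300 nM, DW71177 was thus 0.24 ± 0.054 above OTX015 for this Ras activator gene.

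N4BP3 was low with RVX208 and read under 5 in every array. The DMSO arrays read 4.82, 4.96 and 4.86 and the RVX208 arrays 4.25, 4.32 and 4.38. OTX015 gave 4.77, 4.85 and 4.83 and DW71177 gave 4.97, 4.68 and 4.82, both overlapping DMSO. The RVX208 arrays lay below all 12 others, at -0.56 ± 0.081 from DMSO and -0.50 ± 0.081 from OTX015. The DW71374 arrays, at 4.77, 4.67 and 4.53, also lay below the DMSO arrays, and measured from them the RVX208 difference was -0.34 ± 0.081. Whether the RVX208 arrays lay above background was not tested, since the table holds no background level.

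**Figure D1:**
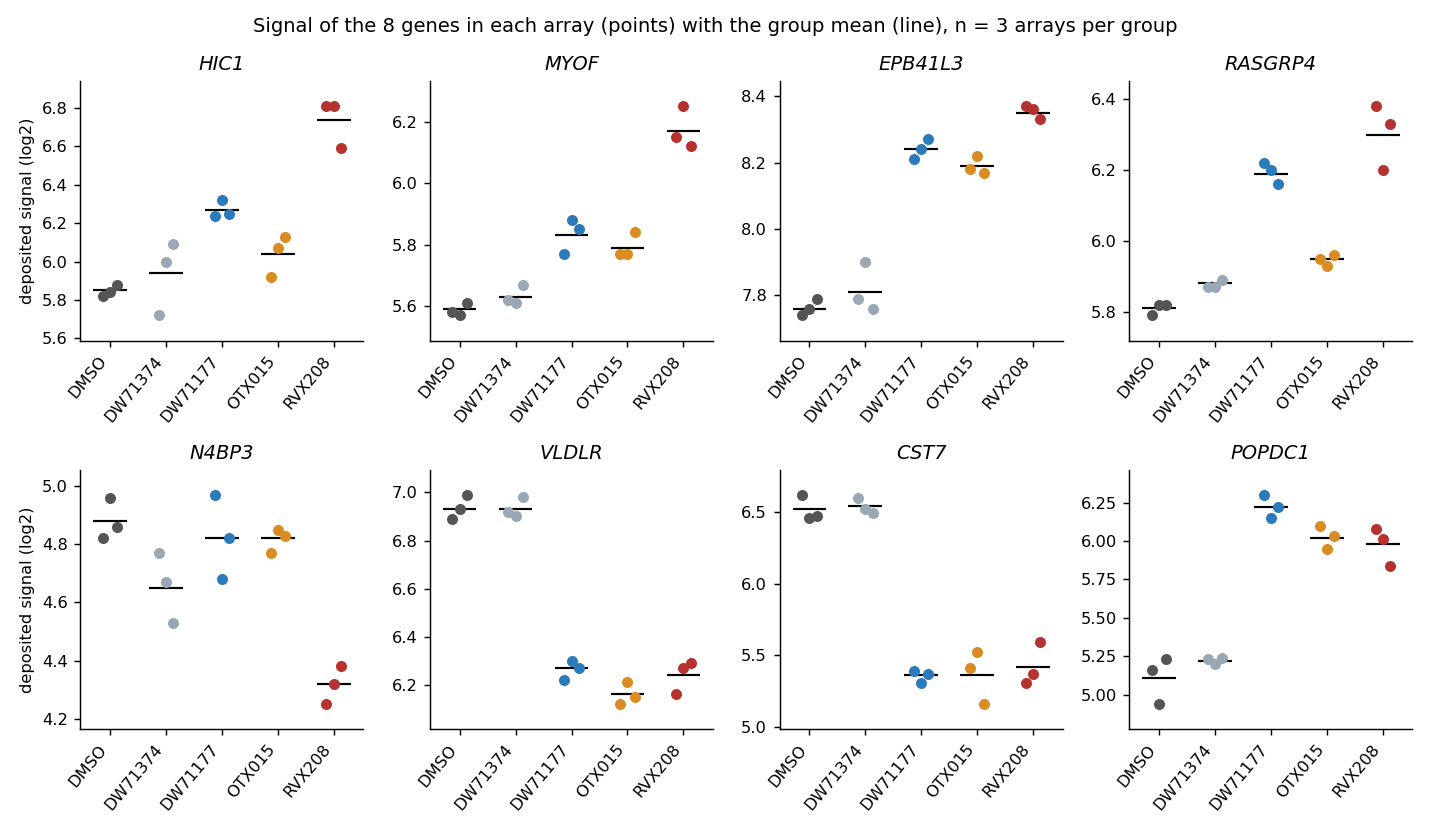
Deposited log2 signal of each of the 8 genes in every array, 1 panel per gene, with points for arrays and a line for the mean of the 3 arrays of a group. The RVX208 arrays lie beyond all other arrays for HIC1, MYOF, EPB41L3 and N4BP3, and overlap the DW71177 or OTX015 arrays for RASGRP4, VLDLR, CST7 and POPDC1. The vertical scales differ between panels and do not start at 0.

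VLDLR, CST7 and POPDC1 changed with RVX208 by about as much as with OTX015. With DW71177, VLDLR and CST7 did so too, while POPDC1 rose further. VLDLR, the lipoprotein receptor gene, read 6.89, 6.93 and 6.99 in DMSO and 6.16, 6.27 and 6.29 with RVX208. OTX015 gave 6.12, 6.21 and 6.15 and DW71177 gave 6.22, 6.30 and 6.27. The RVX208 arrays overlapped both of these groups, while the DMSO and DW71374 arrays (6.92, 6.90 and 6.98) lay apart above them. The difference from DMSO was -0.70 ± 0.057 with RVX208, -0.77 ± 0.057 with OTX015 and -0.67 ± 0.057 with DW71177. Between RVX208 and OTX015 it was 0.08 (95% interval -0.05 to 0.20), at different doses.

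CST7 had the widest fall of the 8 genes. The DMSO arrays read 6.62, 6.46 and 6.47 and the DW71374 arrays 6.60, 6.52 and 6.49. RVX208 gave 5.31, 5.37 and 5.59, OTX015 gave 5.41, 5.52 and 5.16, and DW71177 gave 5.39, 5.31 and 5.37. The arrays of these 3 groups overlapped one another and lay below every DMSO and DW71374 array. Signals of this cystatin gene were 2.14-fold lower with RVX208 than in DMSO (-1.10 ± 0.095), 2.23-fold lower with OTX015 and 2.24-fold lower with DW71177. RVX208 differed from OTX015 by 0.06 (95% interval -0.14 to 0.27).

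POPDC1 was raised, most of all by DW71177. It read 5.16, 4.94 and 5.23 in DMSO, 6.30, 6.15 and 6.22 with DW71177, 6.10, 5.95 and 6.03 with OTX015 and 6.08, 6.01 and 5.84 with RVX208. The OTX015 and RVX208 arrays overlapped, the DW71177 arrays lay above both, and DW71374 at 5.23, 5.20 and 5.24 overlapped DMSO. The difference from DMSO was 1.11 ± 0.083 with DW71177, 0.91 ± 0.083 with OTX015 and 0.87 ± 0.083 with RVX208. RVX208 differed from OTX015 by -0.05 (95% interval -0.22 to 0.13).

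**Figure D2:**
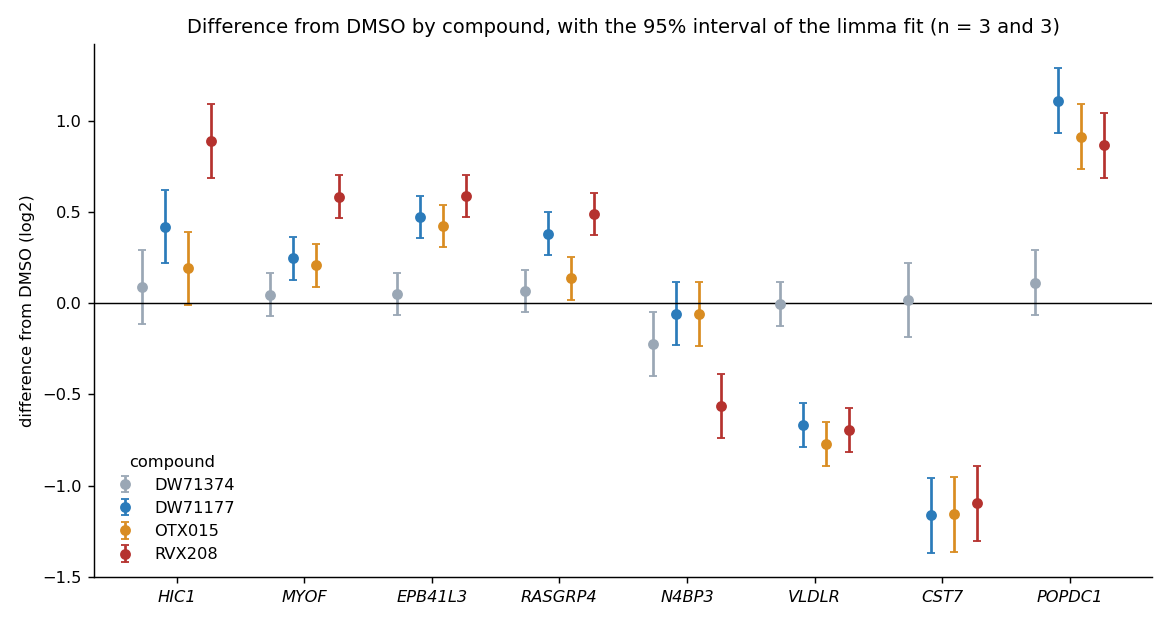
Difference from DMSO on the log2 scale for each gene and compound, with points for the difference of means of 3 and 3 arrays and bars for the 95% interval of the fit. RVX208 stands apart for HIC1 at 0.89 and MYOF at 0.59, while the 3 active compounds lie close together for VLDLR and CST7. For N4BP3, at -0.56 with RVX208, the interval overlaps that of DW71374. Doses differ, at 5 uM for RVX208 and 300 nM for the others.

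The wording of the choice can be put as a number. Over all 14812 genes the RVX208 difference had a slope of 0.349 on the OTX015 difference when RVX208 was measured from the DW71374 arrays and OTX015 from DMSO, so that no array entered both. A gene with a scaled response would lie on that line, and the SD of the distances from it over all genes was 0.145. HIC1 lay 0.73 above it, rank 4 from the highest of all genes. MYOF lay 0.47 above it (rank 42), POPDC1 0.44 (rank 60), EPB41L3 0.39 (rank 104) and RASGRP4 0.38 (rank 134). CST7 lay -0.71 from the line, rank 11 from the lowest, VLDLR -0.42 (rank 107) and N4BP3 -0.32 (rank 303). For CST7 the line predicted -0.40, where RVX208 gave -1.12 and OTX015 -1.16. For N4BP3 it predicted -0.02. The same kind of distance thus came from a gene that OTX015 moved by -0.06 and from one that it moved about as far as RVX208 did. With DMSO as the control of both compounds the slope was 0.424, all 8 distances kept their signs, and that of N4BP3 became -0.54.

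The list of 8 has no cutoff, and other genes lay as far from that line. Among those with a group mean of at least 5, the highest distances outside the list were those of SPATA31H1 at 0.82, C1orf53 at 0.65, C15orf62 at 0.55, FSD1 at 0.52 and LINC00467 at 0.51. The lowest were those of the IgM receptor gene FCMR at -0.88, the surrogate light chain gene IGLL1 at -0.78, the chemokine receptor gene CCR2 at -0.77, N4BP2L2-IT2 at -0.76 and MIR548AL at -0.74. With DMSO as the control of both compounds, only SPATA31H1, FCMR and N4BP2L2-IT2 of these stayed among the 5 farthest each way. SCIMP at 0.66 and PRAMEF10 at -0.7 then lay farthest outside the list. C1orf53 differed by 0.68 with RVX208 from DW71374 and by 0.07 with OTX015 from DMSO, a pattern of the HIC1 kind. FCMR differed by -1.63 and -2.15 in the same comparisons. It fell with both compounds, as CST7 did, but by less with RVX208. RVX208 arrays lay above or below all 12 others for 4 of the 8 genes and for 0.655% of all genes. The rule used these arrays, so nothing is read from that share.

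The other counts of genes without overlapping arrays are given with the share of all genes. From DMSO 5 of the 8 genes had RVX208 arrays all higher and 3 all lower (12.7% and 13.3% of all genes). OTX015 arrays were all higher than DMSO for 5 and all lower for 2 (16.7% and 19.5%), and so were DW71177 arrays for 5 and 2 (16.4% and 16.2%). Against OTX015, RVX208 arrays were all higher for 4 genes and all lower for N4BP3 (16.5% and 12.8%), and against DW71177 all higher for 3 and all lower for N4BP3 and POPDC1 (10.6% and 10.3%). DW71177 arrays were all higher than OTX015 arrays for HIC1, RASGRP4, VLDLR and POPDC1 and all lower for 0 (10.5% and 5.02%). From DW71374, RVX208 gave 5 higher and 3 lower (12.7% and 12.6%) and OTX015 5 higher and 2 lower (17% and 19.2%). These shares of all genes are background for a description, because at least 1 group of each of these pairs chose the genes.

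**Figure D3:**
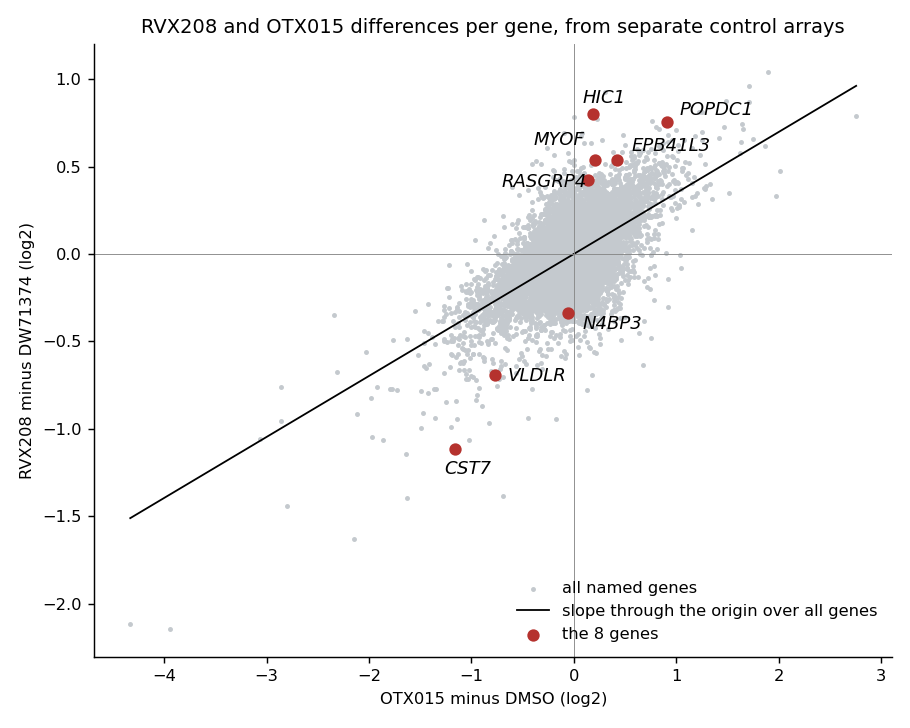
RVX208 minus DW71374 (vertical axis) against OTX015 minus DMSO (horizontal axis), both as log2 differences of group means, with 1 grey point per named gene, red points for the 8 genes and the slope of 0.349 as a line. HIC1, MYOF, EPB41L3, RASGRP4 and POPDC1 lie above the line, and N4BP3, VLDLR and CST7 below it.

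The wording of the choice used neither the DW71177 nor the DW71374 arrays, and their comparison at 300 nM was the one in which the 8 genes could be tested. In limma 7 of the 8 differed, 5 higher and 2 lower with DW71177, where 19.5% of all genes were called, 9.98% higher and 9.51% lower. Arrays lay wholly above for 5 genes and wholly below for 2, where 16.1% and 15.4% of all genes did so. The genes were chosen for their change with RVX208 and with earlier results of these data known. Nothing is therefore read from these counts beside the shares of all genes. POPDC1 was 2-fold higher (95% interval of the log2 difference 0.82 to 1.18, n = 3 and 3, limma adjusted p = 1.8e-06), CST7 was 2.27-fold lower (-1.18 ± 0.095, limma adjusted p = 1.5e-06) and VLDLR was 1.58-fold lower (-0.66 ± 0.057, limma adjusted p = 2.4e-06). EPB41L3 rose by 0.42 ± 0.053 (limma adjusted p = 6e-05) and RASGRP4 by 0.32 ± 0.054 (limma adjusted p = 8e-04). None of these 5 genes had overlapping arrays, and the calls held in all 13 alternatives.

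The calls of HIC1 and MYOF depended on single arrays. HIC1 was 0.33 ± 0.094 higher than with DW71374 (limma adjusted p = 0.022) and MYOF 0.20 ± 0.054 higher (limma adjusted p = 0.018), with no overlap of arrays in either case. The HIC1 call was lost without DW71374 replicate 1, where its difference was 0.22 (limma adjusted p = 0.11), and without DW71177 replicate 2 (limma adjusted p = 0.073). The MYOF call was lost without DW71177 replicate 2 or 3 or DW71374 replicate 1 or 2, at limma adjusted p = 0.065, 0.056, 0.057 and 0.066. Both were also lost in a fit of the 6 arrays alone (limma adjusted p = 0.078 and 0.089). N4BP3 differed by 0.17 (95% interval -0.01 to 0.34, limma adjusted p = 0.2), and its arrays overlapped.

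DW71374 was then set beside DMSO, as a description with no test for the 8 genes, because the DMSO arrays took part in choosing them. The differences ran from -0.22 ± 0.081 for N4BP3 to 0.11 ± 0.083 for POPDC1. All 3 DW71374 arrays lay above DMSO for MYOF and RASGRP4 and below it for N4BP3, where 4.69% and 5.98% of all genes had arrays wholly above or below. Nothing is read from these counts. For VLDLR the 95% interval of the difference was -0.13 to 0.12, and for CST7 it was -0.19 to 0.22. Over all genes limma called 0 of 14812 (0%), and 686 had an unadjusted p under 0.05.

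**Figure D4:**
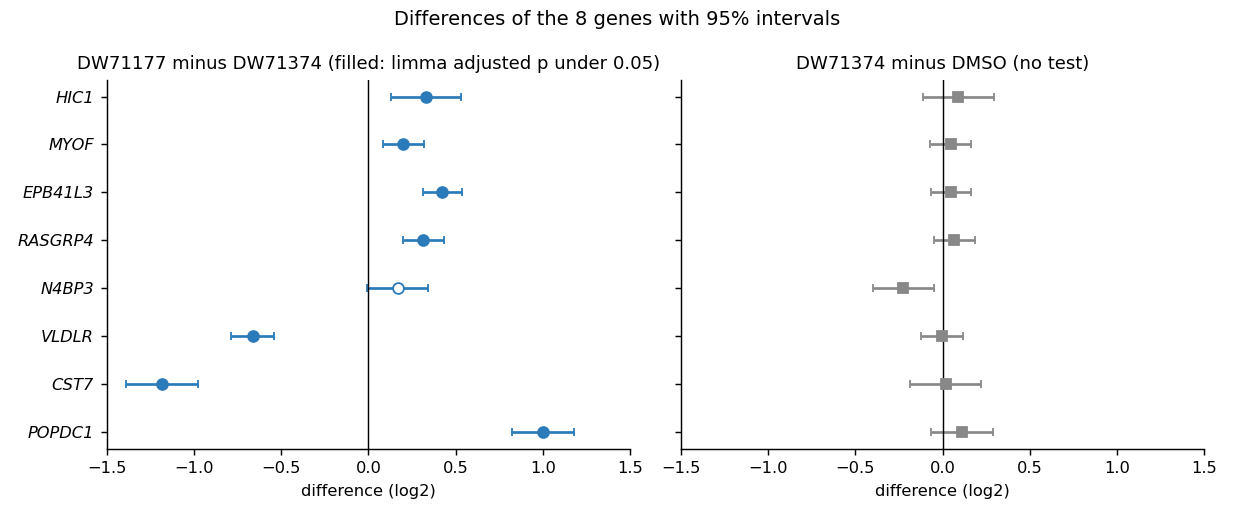
Log2 differences of the 8 genes between DW71177 and DW71374 (left) and between DW71374 and DMSO (right), with bars for the 95% interval of the fit and blue points for the tested pair, filled for a limma adjusted p under 0.05. On the left 7 points are filled and N4BP3 is open. The grey squares on the right carry no test, since the DMSO arrays took part in the choice, and run from -0.22 to 0.11.

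Across the 15 arrays the 8 genes fell into patterns that can be described by correlation, over points that share the 5 treatments. HIC1 and MYOF correlated at 0.954, and each was the gene most like the other among all genes with a group mean of at least 5 and a range of group means of at least 0.5. EPB41L3 followed for both, at 0.814 with HIC1 and 0.869 with MYOF. RASGRP4 was most like HIC1 at 0.896 and MYOF at 0.871. VLDLR and CST7 correlated at 0.977 and were likewise each other's closest gene, and both ran opposite to POPDC1 at -0.952 and -0.962.

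Some of the closest genes lay outside the list. SFMBT2 followed VLDLR at 0.967, with -0.68 from DMSO for OTX015 and -0.50 for RVX208, and FCMR followed CST7 at 0.974. POPDC1 was most like TPMT at 0.963, a thiopurine-metabolising enzyme gene, and TINF2 at 0.959, a telomere shelterin gene. EPB41L3 was most like DCTN4, a dynactin subunit gene, at 0.924 and ZNF404 at 0.923, both higher with DW71177 (0.66 and 0.60) than with RVX208 (0.55 and 0.55). N4BP3 had looser neighbours, PRAMEF10 at 0.726 and MEX3B at 0.686. PRAMEF10 was -0.72 from DMSO with RVX208, -0.03 with OTX015 and -0.37 with DW71374.

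Genes that belong with the 8 by family or pathway were described next, from 10 lists holding 198 other genes, of which 136 were measured. With RVX208, 15 rose and 5 fell, 20 in all, where limma called 6.52% of all genes, 3.41% higher and 3.11% lower. The median difference was -0.00 over these genes and -0.01 over all. With OTX015 34 rose and 18 fell, where 25.7% of all genes were called, 11.2% higher and 14.5% lower. With DW71177 28 rose and 12 fell, where 19.8% were called, 9.95% higher and 9.88% lower, and with DW71374 0 did. Between RVX208 and OTX015 10 were higher and 21 lower with RVX208, where 9.49% of all genes were higher and 5.05% lower. Of all genes called there 65.3% were higher with RVX208, and 54.4% after quantile normalization. The RVX208 calls numbered 9 to 13 when any 1 of the 6 arrays was left out. They held in all alternatives run for 7 genes: ADD3, DUSP6, RASGRP2, PSAT1, PHGDH, CTSB and CSTA. The other 13 were lost in at least 1.

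The family members HIC2, OTOF, FER1L6, LRP5, LRP6, POPDC2 and POPDC3 were not called with RVX208, and several were dim, with means under 5 over the 15 arrays. Nothing is read from the counts of called genes in the lists of HIC1, MYOF, VLDLR and POPDC1. Of 8 measured HIC1 relatives and partners 0 were called with RVX208, where 6.52% of all genes were. HIC2 differed by -0.07 ± 0.12. The deacetylase gene SIRT1, which HIC1 is known to repress, differed by 0.25 ± 0.074 with RVX208 (limma adjusted p = 0.059) and rose by 0.54 ± 0.074 with OTX015 (limma adjusted p = 7.7e-05). The corepressor gene CTBP1 differed by -0.10 ± 0.059 with RVX208. Of 12 ferlin and membrane repair genes ANXA5 rose by 0.34 ± 0.087 and ANXA1 fell by 0.34 ± 0.093 with RVX208 (limma adjusted p = 0.035 and 0.045), calls lost in 7 and 5 of 13 alternatives with adjusted p up to 0.13 and 0.16. The ferlin genes OTOF and FER1L6 differed by -0.09 ± 0.074 and -0.08 ± 0.12. Both were dim, with means of 3.93 and 3.63, and whether they lay above background was not tested.

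Among 17 measured genes around the LDL receptor family 1 was called with RVX208, where 6.52% of all genes were. It was LRPAP1, the receptor chaperone, at 0.21 ± 0.054 (limma adjusted p = 0.033). That call was lost when any 1 of the 6 arrays was left out, with adjusted p up to 0.12. LRP5 differed by -0.00 ± 0.080 and LRP6, a dim gene with a mean of 3.65, by 0.08 ± 0.14. The Popeye genes POPDC2 and POPDC3 differed by 0.09 ± 0.099 and -0.17 ± 0.079, at dim means of 3.34 and 2.41. Of the 12 genes of that list with cAMP effectors 0 were called with RVX208. PDE7A, a cAMP phosphodiesterase gene, differed by 0.12 ± 0.067 with RVX208 and rose by 0.30 ± 0.067 with OTX015 (limma adjusted p = 0.004). ADCY9, an adenylyl cyclase gene, differed by -0.08 ± 0.067 with RVX208.

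Ras pathway genes around RASGRP4 moved both ways. Of 20 measured 3 rose and 1 fell with RVX208, while 8 rose and 3 fell with OTX015. Of all genes 3.41% rose and 3.11% fell with RVX208, and 11.2% rose and 14.5% fell with OTX015. The ERK phosphatase gene DUSP6 rose by 0.46 ± 0.061 with RVX208 (limma adjusted p = 6e-04) and by 0.97 ± 0.061 with OTX015, and the 2 compounds differed by -0.51 ± 0.061 (limma adjusted p = 9e-05). SPRY4, another feedback inhibitor of this pathway and a dim gene with a mean of 4.38, rose by 0.47 ± 0.10 with RVX208 (limma adjusted p = 0.015). That call was lost for the 2 groups alone and without DMSO replicate 1 or 3 or RVX208 replicate 1, at adjusted p up to 0.072. RASGRP2 fell by 0.40 ± 0.080 with RVX208 (limma adjusted p = 0.0087) and by 0.71 ± 0.080 with OTX015, the opposite direction to RASGRP4. RASGRP1 and RASGRP3 differed by -0.03 ± 0.11 and -0.17 ± 0.13 with RVX208, and both were dim, with means of 3.37 and 2.38.

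The protein 4.1 and membrane skeleton list had 1 call of 15 with RVX208, where 6.52% of all genes were called, 3.41% higher and 3.11% lower. ADD3, an adducin of the spectrin skeleton, rose by 0.65 ± 0.078 with RVX208 (limma adjusted p = 0.00026) and by 1.08 ± 0.078 with OTX015, a difference between them of -0.43 ± 0.078 (limma adjusted p = 0.002). The EPB41L3 relatives EPB41L1 and EPB41L2 differed by 0.23 ± 0.13 and -0.07 ± 0.11, at dim means of 4.29 and 4.36. Around N4BP3, 3 of 11 genes of NEDD4 ligases and partners rose with RVX208: N4BP2L1 by 0.32 ± 0.068, ITCH by 0.28 ± 0.068 and WWP1 by 0.32 ± 0.079 (limma adjusted p = 0.012, 0.023 and 0.03). The ligase genes ITCH and WWP1 were lower with RVX208 than with OTX015 (limma adjusted p = 0.017 and 0.015), whereas N4BP2L1 differed by 0.19 ± 0.068 the other way (limma adjusted p = 0.087). The ITCH and WWP1 calls against OTX015 were lost in 5 and 3 of 13 alternatives, among them leaving out OTX015 replicate 1 or RVX208 replicate 1 or 3 (adjusted p up to 0.072 and 0.071). The RVX208 calls of all 3 were lost without RVX208 replicate 2, with adjusted p up to 0.11 over all alternatives.

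Of 21 cystatin and cathepsin genes, the family and the kind of protease that CST7 belongs with, 4 rose and 0 fell with RVX208, against 7 and 1 with OTX015. The shares of all genes were 3.41% and 3.11% with RVX208, and 11.2% and 14.5% with OTX015. The cathepsin gene CTSB rose by 0.47 ± 0.060 with RVX208 (limma adjusted p = 0.00036) and by 0.86 ± 0.060 with OTX015. CSTA, a cytosolic cystatin gene, rose by 0.44 ± 0.078 (limma adjusted p = 0.0039), opposite in direction to CST7. CTSS rose by 0.21 ± 0.054 (limma adjusted p = 0.037), a call lost when any 1 of the 6 arrays was left out, with adjusted p up to 0.14. CTSO rose by 0.30 ± 0.085 (limma adjusted p = 0.05 after rounding), a call lost in 8 of 13 alternatives. Neither of these cathepsin genes moved past the test with OTX015, at -0.01 ± 0.054 for CTSS and -0.00 ± 0.085 for CTSO. RVX208 and OTX015 differed by 0.21 ± 0.054 and 0.31 ± 0.085 for them (limma adjusted p = 0.017 and 0.026), and both calls were lost after quantile normalization and without OTX015 replicate 3. The rise of CTSS was not particular to RVX208, since DW71177 gave 0.20 ± 0.054 from DMSO (limma adjusted p = 0.017). CTSO was not called with DW71177. DW71374 differed from DMSO by 0.11 ± 0.054 for CTSS and -0.12 ± 0.085 for CTSO, neither called. The CST7 targets CTSC and CTSL differed by -0.05 ± 0.057 and 0.00 ± 0.10, and CTSL was dim, with a mean of 3.43.

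VLDLR is also known as a target of the ATF4 stress response. Of 14 measured genes of that list, ATF4 included, 1 rose and 3 fell with RVX208, and 2 rose and 4 fell with OTX015. Over all genes 3.41% rose and 3.11% fell with RVX208, against 11.2% and 14.5% with OTX015. The serine synthesis genes PSAT1 and PHGDH fell by 0.57 ± 0.062 and 0.70 ± 0.10 with RVX208 (limma adjusted p = 0.00013 and 0.00094), and ATF4 itself fell by 0.26 ± 0.072 (limma adjusted p = 0.049). SESN2, a stress-induced sestrin gene, rose by 0.35 ± 0.073 (limma adjusted p = 0.011), and ASNS differed by -0.27 ± 0.10 (limma adjusted p = 0.17). The ATF4 call was lost in 7 of 13 alternatives, and that of SESN2 without DMSO replicate 1 or RVX208 replicate 2. Of 6 measured retinoic acid targets CD38 rose by 0.36 ± 0.099 with RVX208 (limma adjusted p = 0.048) and by 0.93 ± 0.099 with OTX015, and the RVX208 call was lost without any 1 of the 6 arrays (adjusted p up to 0.15).

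**Figure D5:**
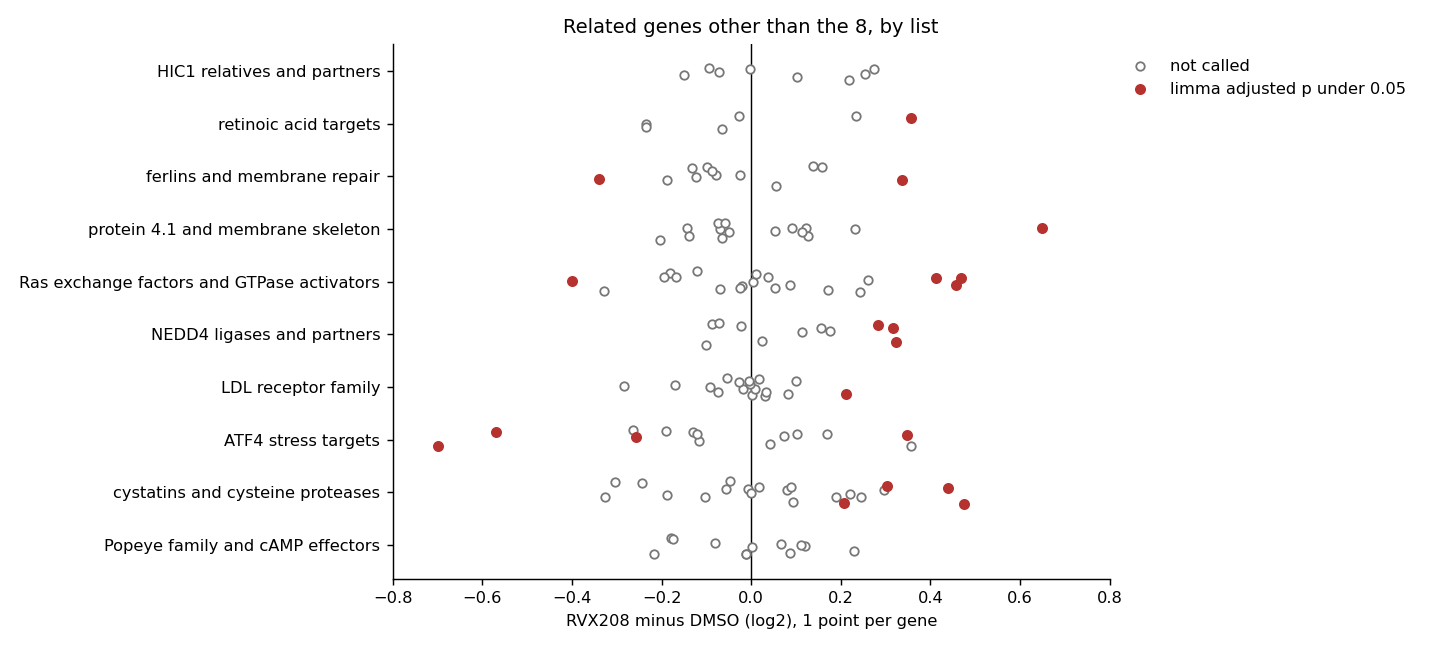
RVX208 minus DMSO on the log2 scale for each measured gene of the 10 related lists, 1 point per gene, with the vertical position within a list without meaning. Filled red points mark a limma adjusted p under 0.05, 20 in all, from PHGDH at -0.70 to ADD3 at 0.65.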

How the data were processed

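The deposited table held log2 signals of 44629 features in 15 arrays, and the scale was inferred from the values. Near-equal quartiles (2.58 to 2.62 and 5.25 to 5.28) show values the authors had normalized between arrays before they were deposited, so a change shared by all genes is removed. How background was corrected and which software and build were used were not stated by the labels or the table. Of the features 15835 named 1 gene in the platform annotation, 0 named several and 28794 were unnamed. The brightest feature per gene (651 genes had several) left 14812 genes, and all of their symbols matched RefSeq.

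Group means were compared in 1 fit of all 5 groups in limma 3.58.1 under R 4.3.3 (lmFit and eBayes, 10 residual degrees of freedom), with two-sided p-values adjusted by the Benjamini-Hochberg method over all genes and a threshold of 0.05. The fit was tested on simulated data. DW71374 against DMSO had been planned as a test of the 8 genes and is given for them as a description, because DMSO arrays chose them. Values are log2 differences ± the standard error of the fit. Groups and replicate numbers came from the sample titles. Same-numbered arrays did not deviate together (correlations -0.087 to 0.098 over 30 pairs), so the numbers were not used as pairs. The members and the lists were chosen with earlier results of these data known. Genes named beside the 8 were the 2 of most like pattern per gene, the 5 farthest from a scaled OTX015 change each way, and up to 3 called genes of smallest p per list with RVX208, or the 2 brightest. CTSO, ATF4, ASNS, CTSC, CTSL and the close relatives of the 8 genes were added after their values were seen. Alternatives were the replicate number as a block, another variance model, array weights, quantile normalization, a level filter, the mean of features, the 2 groups alone, each array left out and DW71374 as the control.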

Additional observations from a re-analysis of the deposited data

How the results depend on the processing

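The 7 calls among the 8 genes between DW71177 and DW71374 were 5 to 7 with each array left out, 5 for the 2 groups alone and 7 with the replicate number as a block (replicate block). In DW71374 against DMSO 0 of all genes were called in every alternative. With 1 array left out, the untested DW71374 minus DMSO values of VLDLR ran from -0.026 to 0.023 (0.002 and 0.015 between) and those of CST7 from -0.016 to 0.07 (-0.012 and -0.005 between), so both changed sign. The 966 genes called between RVX208 and DMSO became 1485 with the trend and robust variance model, 1576 among genes with a mean of at least 5, 609 for the 2 groups alone, 564 to 636 with an array left out and 875 with the replicate block. The 20 related calls became 10, 9 to 13 and 17 in the last 3. The block also ended the calls of CD38, ANXA5 and CTSO there. Between RVX208 and OTX015 the 2153 genes became 1353 and the 31 related genes 16 for the 2 groups alone, and the related genes 20 to 24 with an array left out. Quantile normalization brought RVX208 minus OTX015 to 0.106 for EPB41L3 and 0.015 for VLDLR. With DW71374 as the control, N4BP3 gave -0.339 with RVX208 and, with the sign turned, 0.166 with OTX015 and 0.168 with DW71177, while OTX015 gave 0.102 for HIC1 and 0.071 for RASGRP4. The RVX208 minus DMSO directions of the 8 genes held in all alternatives run. The cause of these changes was not tested. No background level limits the dim gene N4BP3 from below, and 3 arrays per group limit all values.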
